A study of Mus musculus with 16 samples.

Results

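Genes of cholesterol and fatty acid synthesis, with the regulators that drive them and the genes of sterol export, were followed in naive CD4+ T cells with and without the transcription factor Dec1. The set was a list of 36 genes chosen by function, with earlier results of these data known. It held 18 enzymes of the sterol pathway from Hmgcs1 to Dhcr7 and 6 enzymes of fatty acid synthesis. It also held 5 regulators of the SREBP system, the sterol carrier Stard4, and 4 LXR and efflux genes with a usable probe. Acat2 and Nr1h2 were listed as well, but no probe had either symbol alone. Each gene was read from the probe that carried its symbol only, and from the one with the highest mean where there were several. This gave 34 genes of the 16427 tested, and all 34 passed the filter on dim probes, which asked for 4 arrays above their 25th percentile. For 32 genes this held on all 16 arrays. Idi2 and Scd1 had only 3 such arrays among those given anti-CD3 alone and passed through the costimulated ones, so their CD28 calls support nothing about the group of genes.

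The cells were CD62L-high, CD25-negative CD4+ T cells sorted from spleen and lymph nodes of B6 mice. They were stimulated for 24 h with latex beads. The 4 groups of 4 arrays each were KO_CD3CD28 and KO_CD3, Dec1 knockout cells given beads with anti-CD3 and anti-CD28 together or with anti-CD3 alone, and WT_CD3CD28 and WT_CD3, the same 2 stimuli given to wild-type cells. Anti-CD3 engages the T cell receptor complex and anti-CD28 the costimulatory receptor CD28, and no group went without stimulation. The labels give neither the age of the mice nor the part of the gene deleted, and they number the replicates without naming separate animals. The p-values therefore cover the spread of these samples only, and how far that spread is technical was not tested. The level of Xist, an RNA of female cells described below, differed widely between replicates of every group.

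Cells build cholesterol from acetyl-CoA through mevalonate, farnesyl pyrophosphate, squalene and lanosterol. When membranes are poor in sterol, SCAP escorts the SREBP transcription factors out of the endoplasmic reticulum and their released fragments switch on the synthesis genes, whereas INSIG proteins hold SCAP back when sterol is plentiful. Oxysterols instead activate the nuclear receptors LXR, which switch on the exporters Abca1 and Abcg1 and the ubiquitin ligase Mylip. Dividing T cells need lipid for new membranes, and SREBP activity is known to rise when they are activated.

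Promoter windows from 250 bases before to 50 bases after the transcription start were found in RefSeq (GRCm38.p6) for 29 of the genes, in 38 windows. The 4 printed here are those of Hmgcs1, the first sterol gene of the list, of Hsd17b7, which held the E box that Dec1 binds, and of Idi1 and Idi2, related genes on chromosome 13 whose values behaved differently across the arrays. Capitals mark matches, on either strand, to the sterol element TCACNCCAC, to the E box CACGTG or to the NF-Y box CCAAT, which reads ATTGG on the opposite strand.
Hmgcs1, chr13:119690101-119690400, plus strand: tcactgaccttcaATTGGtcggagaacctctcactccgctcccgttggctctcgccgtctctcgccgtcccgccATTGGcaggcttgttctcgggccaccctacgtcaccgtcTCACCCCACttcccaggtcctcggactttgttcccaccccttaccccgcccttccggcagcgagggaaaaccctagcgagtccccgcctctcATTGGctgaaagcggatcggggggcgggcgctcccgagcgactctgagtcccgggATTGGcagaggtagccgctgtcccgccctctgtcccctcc
Hsd17b7, chr1:169969156-169969455, minus strand: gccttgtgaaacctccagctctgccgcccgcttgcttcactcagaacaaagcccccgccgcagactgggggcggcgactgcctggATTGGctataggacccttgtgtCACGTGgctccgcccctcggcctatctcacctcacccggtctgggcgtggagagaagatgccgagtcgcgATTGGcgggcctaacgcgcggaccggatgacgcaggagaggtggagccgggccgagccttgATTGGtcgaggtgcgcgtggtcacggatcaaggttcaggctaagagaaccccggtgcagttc
Idi1, chr13:8885356-8885655, plus strand: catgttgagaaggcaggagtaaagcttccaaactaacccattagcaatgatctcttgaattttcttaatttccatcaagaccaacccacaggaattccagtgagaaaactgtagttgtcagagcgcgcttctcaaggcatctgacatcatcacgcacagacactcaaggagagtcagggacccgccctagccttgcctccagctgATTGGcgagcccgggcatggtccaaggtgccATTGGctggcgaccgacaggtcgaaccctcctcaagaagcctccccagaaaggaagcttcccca
Idi2, chr13:8952613-8952912, plus strand: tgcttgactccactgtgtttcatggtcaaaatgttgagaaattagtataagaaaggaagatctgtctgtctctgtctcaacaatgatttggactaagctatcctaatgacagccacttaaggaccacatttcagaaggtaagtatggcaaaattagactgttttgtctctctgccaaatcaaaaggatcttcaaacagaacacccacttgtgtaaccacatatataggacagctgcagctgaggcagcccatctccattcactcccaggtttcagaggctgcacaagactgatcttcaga
The sterol element was found in the window of Hmgcs1 alone among these genes, 137 bases before the start, and in 1.24% of all 32851 mouse windows of this length. The E box was in 7 of the 38 windows, those of 6 genes (Hsd17b7, Insig1, Sc5d, Dhcr7, Scap and Abca1), and in 7.15% of all windows. The CCAAT box was in 22 of the 38 windows, those of 21 genes with Idi1 included, and in 37.4% of all windows. The Idi2 window held none of these motifs. An LXR repeat, a pair of AGGTCA motifs with any 4 bases between them, was in none of these windows and in 0.0152% of all.

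Some facts of the whole series bear on what follows. Bhlhe40, which encodes Dec1, averaged 5.88 ± 0.14 in KO_CD3CD28 against 9.51 ± 0.71 in WT_CD3CD28, and 5.53 ± 0.32 in KO_CD3 against 7.56 ± 0.42 in WT_CD3 (log2 signal, SD, n = 4). Array medians were 6.64 to 6.97, and the number of arrays limits the precision. Xist, an RNA of female cells, was high in KO replicates 2 and 4 and WT replicate 1 under both stimuli. The mean level of 10 T cell identity genes was 11.19 to 11.31 in KO_CD3CD28, 11.42 to 11.66 in KO_CD3, 11.08 to 11.52 in WT_CD3CD28 and 11.59 to 11.85 in WT_CD3, so the mean of these T cell markers was high on every array. Of the 10, 1 was higher and 4 lower under anti-CD28 in KO cells (median difference -0.34), and 1 higher and 5 lower in WT cells (median difference -0.55). The mean of 7 B cell markers was 6.13 to 6.22, 6.36 to 6.74, 6.01 to 6.25 and 6.49 to 6.62 in the same order of groups, with 4 of the 7 lower under anti-CD28 in each genotype. All 4 measured CD8 and NK cell markers of 6 listed were higher under anti-CD28 in each genotype. Over all genes, 20.4% were higher and 17.6% lower under anti-CD28 in KO cells, and 16% and 13% in WT cells. In such bulk samples, fewer cells of a type and less RNA per cell cannot be told apart.

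The first question was what CD28 costimulation adds to anti-CD3 for these genes. In limma, with a Benjamini-Hochberg adjusted p under 0.05 over all genes, 19 of the 34 genes were higher and 4 lower in KO_CD3CD28 than in KO_CD3, where 20.4% of all genes were called higher and 17.6% lower. In wild-type cells 14 were higher and 2 lower, against 16% and 13% of all genes. Idi2 is among the 19 in KO cells and Scd1 among the 14 in WT cells, and neither call supports anything about the group. Both genes also enter the medians below. The median log2 difference over the 34 genes was 0.42 in KO cells and 0.36 in WT cells, and over all genes -0.06 in KO cells and -0.03 in WT cells. Of the called genes, 12 were higher and 2 lower in both genotypes, which is 60.9% of the KO calls and 87.5% of the WT calls. The shared part of the calls over all genes was not counted, so these percentages are a description. Centring each array on its median raised the median difference of all genes by 0.13 in KO cells and by 0.091 in WT cells. The calls then stood at 22 higher and 1 lower in KO cells, and at 15 higher and 1 lower in WT cells. With this centring 5713 of all genes were called in KO cells and 4679 in WT cells, both directions together. Their split by direction was not counted, so the move towards higher calls is a description.

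**Figure D1:**
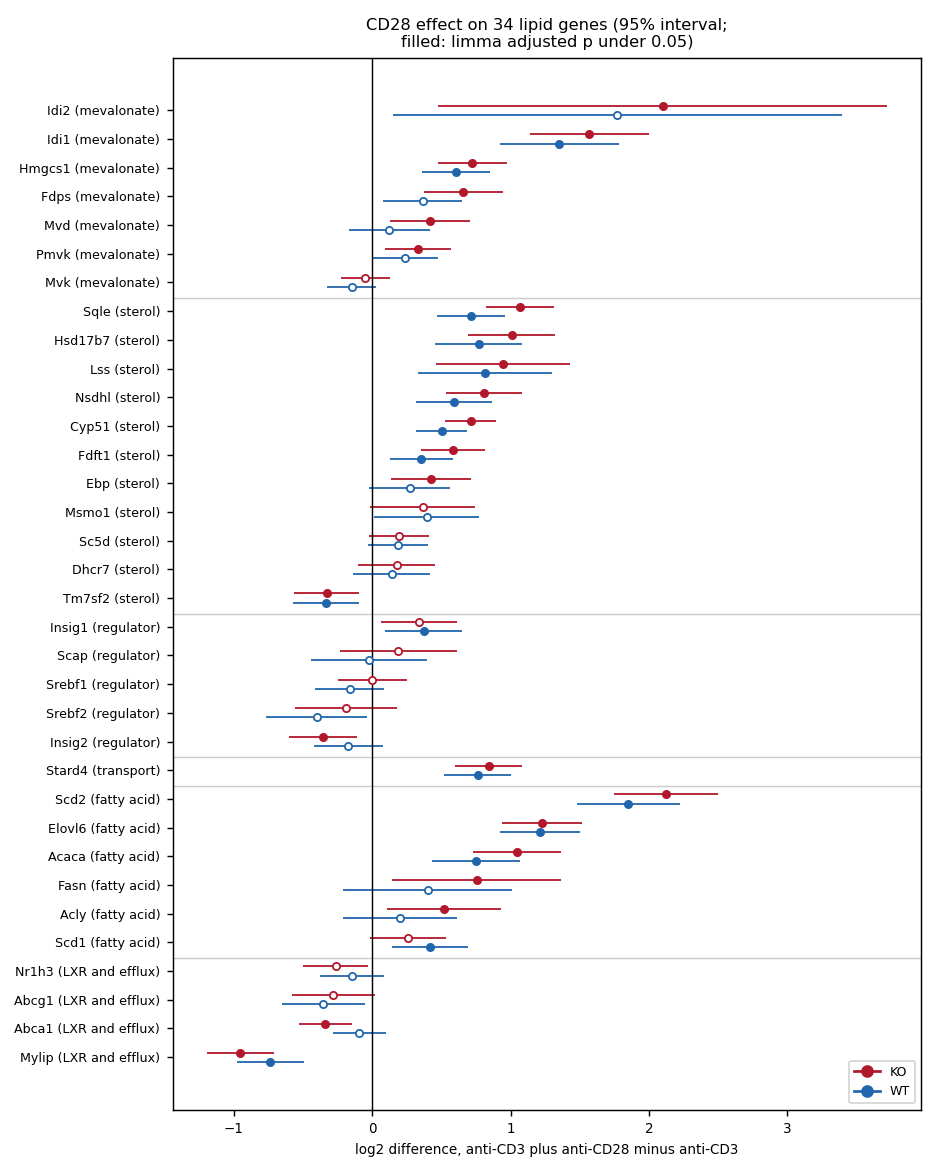
Log2 difference of each gene between anti-CD3 plus anti-CD28 and anti-CD3 alone, in KO and WT cells, with its 95% interval and grouped by role; filled points have a limma adjusted p under 0.05. The sterol and fatty acid enzymes lie mostly right of 0, and Scd2 reaches 2.12 in KO cells and 1.85 in WT cells.

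In the mevalonate steps, 6 of 7 genes were higher under anti-CD28 in KO cells and 2 of 7 in WT cells, against 20.4% and 16% of all genes. The KO count includes Idi2, which passed the filter only through the costimulated arrays. Hmgcs1, which makes HMG-CoA, was at 9.94, 9.85, 10.18 and 9.97 in KO_CD3CD28, against 9.26, 8.95, 9.61 and 9.23 in KO_CD3. The WT_CD3CD28 arrays had 10.18, 10.06, 9.91 and 10.12 for it, against 9.45, 9.37, 9.60 and 9.44 in WT_CD3. Both pairs of groups stood apart, with differences of 0.72 in KO cells (SE 0.117, adjusted p = 0.0001) and 0.60 in WT cells (adjusted p = 0.000754). Idi1, which isomerises isopentenyl pyrophosphate, was at 10.99, 10.92, 11.02 and 10.72 in KO_CD3CD28, against 8.92, 8.79, 9.81 and 9.85 in KO_CD3. In WT cells it was at 10.99, 11.11, 10.53 and 10.77 in WT_CD3CD28, against 9.46, 9.43, 9.73 and 9.38 in WT_CD3. The groups did not overlap in either genotype, and KO_CD3 replicates 1 and 2 lay lowest, so that the KO difference of 1.57 was 2.10 over replicates 1 and 2 and 1.04 over replicates 3 and 4. Fdps, which makes farnesyl pyrophosphate, was at 10.04, 10.04, 10.11 and 10.40 in KO_CD3CD28, against 9.58, 9.20, 9.86 and 9.34 in KO_CD3. Its WT_CD3CD28 values were 10.07, 10.20, 10.18 and 9.76, against 9.77, 9.63, 9.81 and 9.54 in WT_CD3. It rose in KO cells by 0.66 (adjusted p = 0.000972), with no overlap. The WT groups overlapped because of WT_CD3CD28 replicate 4, and the difference of 0.36 had an adjusted p of 0.0532, which was 0.0347 with the replicate block. Leaving out 1 array gave a call for Fdps in WT cells in 4 cases, among them 0.46 without WT_CD3CD28 replicate 4 (adjusted p = 0.0161).

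The other mevalonate enzymes moved less. Pmvk, the phosphomevalonate kinase, averaged 8.04 ± 0.16 in KO_CD3CD28 against 7.71 ± 0.11 in KO_CD3, a difference of 0.33 that was called (adjusted p = 0.027), and its WT difference of 0.24 was not. Mvd, the mevalonate pyrophosphate decarboxylase, was higher by 0.42 in KO cells (adjusted p = 0.024), with a WT difference of 0.12 that was not called. Both KO calls rested on single arrays. Pmvk had adjusted p-values up to 0.0844 without any of 4 arrays (KO_CD3CD28 replicates 1 and 2, KO_CD3 replicates 2 and 4), and Mvd up to 0.0924 without KO_CD3CD28 replicate 1, its replicate 2 or KO_CD3 replicate 4. For Mvk, the mevalonate kinase, differences of -0.05 in KO cells and -0.15 in WT cells did not pass the test.

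Idi2, the relative of Idi1, split the replicates of both costimulated groups. It was at 8.76, 8.89, 6.27 and 5.96 in KO_CD3CD28, against 5.29, 5.50, 5.36 and 5.33 in KO_CD3. In WT cells it was at 9.25, 9.49, 5.83 and 5.95 in WT_CD3CD28, against 6.13, 6.11, 5.42 and 5.78 in WT_CD3. Replicates 1 and 2 of both costimulated groups were high. Replicates 3 and 4 were little above the anti-CD3 arrays in KO cells and inside their range in WT cells. The CD28 difference was 3.43 in KO cells and 3.25 in WT cells over replicates 1 and 2, and 0.77 in KO cells and 0.29 in WT cells over replicates 3 and 4. A second Idi2 probe gave the same picture, at 8.38, 8.42, 5.89 and 5.79 in KO_CD3CD28 and 8.80, 9.08, 5.64 and 5.79 in WT_CD3CD28. Over all arrays Idi2 was called in KO cells (2.10, SE 0.769, adjusted p = 0.0396) and not in WT cells (1.77, adjusted p = 0.0982), where the replicate block gave 0.0167. The KO call was lost without KO_CD3CD28 replicate 1 or 2 (differences of 1.67 and 1.63) and without any single KO_CD3 array, with adjusted p-values up to 0.133. In WT cells it was called without WT_CD3CD28 replicate 3 (2.37) or replicate 4 (2.33). On the anti-CD3 arrays Idi2 was between the 19.0 and 21.6 percentiles of the array in KO_CD3 and between the 23.3 and 36.3 percentiles in WT_CD3. It was thus under the level asked for by the filter on all 4 KO_CD3 arrays, and it was tested only because the costimulated arrays were brighter, so the calls of Idi2 are a description. Per-array values of Idi2 are given because its pattern was seen in the data.

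**Figure D2:**
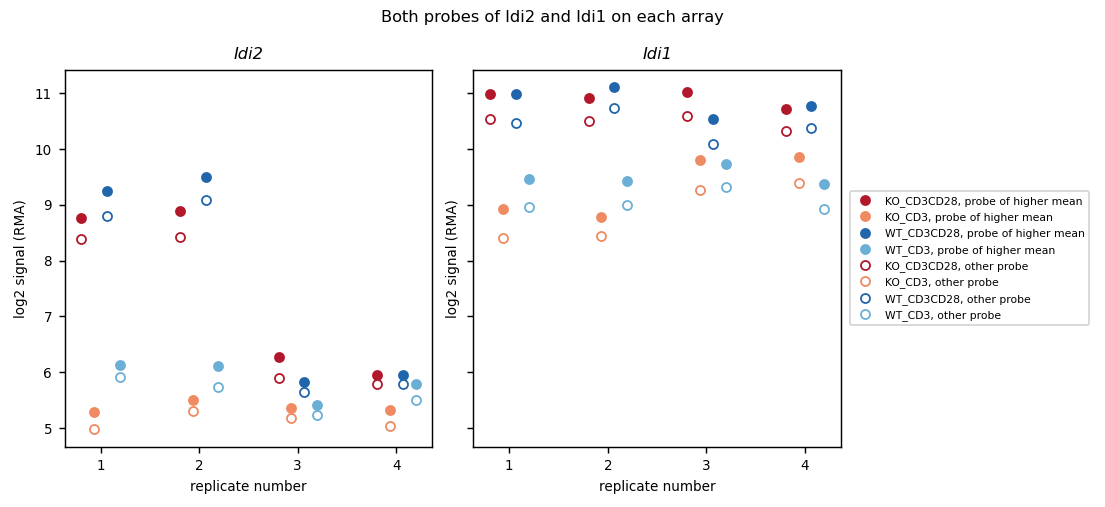
Log2 signal of both probes of Idi2 (left) and Idi1 (right) on each array, by replicate number and group; filled points are the probe used. Idi2 is between 8.38 and 9.49 in costimulated replicates 1 and 2 and between 5.64 and 6.27 in costimulated replicates 3 and 4, while the Idi1 probe used stays between 10.53 and 11.11 on all of these arrays.

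Of the 11 steps from squalene on, 7 were higher and 1 lower in KO cells under anti-CD28, and 6 higher and 1 lower in WT cells. The shares over all genes were 20.4% higher and 17.6% lower in KO cells, and 16% and 13% in WT cells. Fdft1, the squalene synthase, was at 10.28, 10.26, 10.30 and 10.22 in KO_CD3CD28, against 9.76, 9.61, 9.97 and 9.40 in KO_CD3. The same gene was at 10.51, 10.29, 10.34 and 10.40 in WT_CD3CD28, against 9.83, 10.04, 10.24 and 10.00 in WT_CD3. Neither pair overlapped, and it rose by 0.59 in KO cells (adjusted p = 0.000384) and by 0.35 in WT cells (adjusted p = 0.0199). The WT call was lost without replicate 1 of WT_CD3CD28 (0.31, adjusted p = 0.0668) or of WT_CD3 (0.29, adjusted p = 0.0736). Sqle, the squalene epoxidase, was at 10.65, 10.57, 10.50 and 10.36 in KO_CD3CD28, against 9.44, 9.32, 9.62 and 9.44 in KO_CD3. Its values were 10.69, 10.62, 10.36 and 10.30 in WT_CD3CD28, against 10.03, 9.87, 9.63 and 9.57 in WT_CD3. The costimulated arrays lay clear of the others in both genotypes, with differences of 1.07 in KO cells (SE 0.116, adjusted p = 1.61e-06) and 0.72 in WT cells (adjusted p = 0.000157). Cyp51, the lanosterol demethylase, was at 10.94, 10.81, 11.00 and 10.93 in KO_CD3CD28, against 10.21, 9.95, 10.34 and 10.33 in KO_CD3. For WT cells the values were 10.96, 11.03, 10.88 and 10.92 in WT_CD3CD28, against 10.45, 10.36, 10.53 and 10.43 in WT_CD3. The spread within groups was small beside the differences of 0.71 in KO cells (adjusted p = 5.8e-06) and 0.50 in WT cells (adjusted p = 0.000278).

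Further enzymes of this stretch rose in both genotypes. Hsd17b7, the sterol ketone reductase whose promoter is printed above, averaged 8.86 ± 0.20 in KO_CD3CD28 against 7.85 ± 0.24 in KO_CD3, and 9.00 ± 0.32 in WT_CD3CD28 against 8.23 ± 0.12 in WT_CD3. Lss, which closes the rings to lanosterol, was higher by 0.95 in KO cells (adjusted p = 0.00349) and by 0.81 in WT cells (adjusted p = 0.0118). Nsdhl, a sterol dehydrogenase, was higher by 0.81 in KO cells and 0.59 in WT cells (adjusted p = 9.45e-05 and 0.00203). Ebp, the sterol isomerase, was called in KO cells alone, by 0.43 (adjusted p = 0.0213), with a WT difference of 0.27. The Ebp call was lost without KO_CD3CD28 replicate 1 or 2 or KO_CD3 replicate 2, with adjusted p-values up to 0.0866, and a WT call appeared without WT_CD3CD28 replicate 4 (0.39, adjusted p = 0.0294).

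Other enzymes between squalene and cholesterol did not pass the test or fell. Msmo1, the sterol methyl oxidase, was at 10.19, 10.23, 10.40 and 10.25 in KO_CD3CD28, against 9.73, 9.24, 10.24 and 10.40 in KO_CD3. It was at 10.34, 10.34, 10.06 and 9.98 in WT_CD3CD28, against 9.75, 9.68, 9.93 and 9.79 in WT_CD3. The KO groups overlapped, since KO_CD3 replicates 3 and 4 were as high as the costimulated arrays, and the WT groups did not. Neither difference was called, at 0.36 in KO cells (adjusted p = 0.121) and 0.39 in WT cells (adjusted p = 0.116). Without KO_CD3 replicate 4 the KO difference of Msmo1 was 0.53 (adjusted p = 0.0197), and without KO_CD3 replicate 2 it was 0.15 (adjusted p = 0.449). Over replicates 3 and 4 alone it was 0.005. For WT cells, Msmo1 without KO_CD3 replicate 2 had an adjusted p of 0.0268. Sc5d, the sterol desaturase, and Dhcr7, the last reductase of the pathway, differed by 0.19 and 0.18 in KO cells and by 0.19 and 0.14 in WT cells, none of them called. Leaving out KO_CD3 replicate 3 gave a call for Sc5d in KO cells (0.29, adjusted p = 0.0214). Tm7sf2, a sterol reductase, was lower by 0.33 in each genotype (-0.33, adjusted p = 0.0276 in KO cells and 0.0319 in WT cells). These calls of Tm7sf2 were lost under median centring (-0.20 in KO cells and -0.24 in WT cells) and without any of 5 single arrays in each genotype, with adjusted p-values up to 0.114. Its KO_CD3CD28 values were below the array median.

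Of the 6 fatty acid enzymes, 5 were higher under anti-CD28 in KO cells and 4 in WT cells, against 20.4% and 16% of all genes. The median differences were 0.90 in KO cells and 0.58 in WT cells. The WT count and both medians include Scd1, which passed the filter only through the costimulated arrays. Scd2, a desaturase that makes monounsaturated fatty acids, was at 8.42, 8.44, 7.88 and 8.02 in KO_CD3CD28, against 6.34, 5.73, 6.08 and 6.11 in KO_CD3. It was at 8.93, 8.85, 8.88 and 8.12 in WT_CD3CD28, against 7.01, 6.77, 6.94 and 6.66 in WT_CD3. This was a 4.36-fold difference in KO cells (log2 2.12, SE 0.177, adjusted p = 8.43e-08) and a 3.61-fold one in WT cells (log2 1.85, adjusted p = 7.16e-07). The KO_CD3 values were below the array median, between its 25.4 and 38.5 percentiles, so the KO fold may be understated. Scd1, a closely related desaturase, was dim on all 16 arrays and passed the filter through the costimulated ones, at 5.79, 5.65, 5.70 and 5.95 in KO_CD3CD28, against 5.52, 5.32, 5.76 and 5.45 in KO_CD3. In WT cells Scd1 was at 6.20, 6.20, 5.78 and 5.68 in WT_CD3CD28, against 5.69, 5.67, 5.34 and 5.49 in WT_CD3. Both pairs of groups overlapped, and only the WT difference of 0.42 was called (adjusted p = 0.0223), a call lost without WT_CD3CD28 replicate 1 or 2 or WT_CD3 replicate 3 or 4 (adjusted p-values up to 0.0871).

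Elovl6, which lengthens palmitate, was at 9.83, 9.85, 9.44 and 9.64 in KO_CD3CD28, against 8.38, 8.20, 8.60 and 8.67 in KO_CD3. Its WT_CD3CD28 values were 9.97, 9.95, 9.52 and 9.76, against 8.49, 8.34, 8.81 and 8.71 in WT_CD3. The stimuli were far apart in both genotypes, and the difference was 1.23 in KO cells and 1.21 in WT cells (adjusted p = 2.05e-06 and 4.25e-06). Acaca, which makes malonyl-CoA, was at 10.38, 10.23, 10.15 and 10.11 in KO_CD3CD28, against 9.43, 9.34, 9.20 and 8.71 in KO_CD3. Acaca in WT cells was at 10.40, 10.42, 10.12 and 10.38 in WT_CD3CD28, against 9.89, 9.65, 9.57 and 9.22 in WT_CD3. Both differences passed, at 1.05 in KO cells (adjusted p = 2.96e-05) and 0.75 in WT cells (adjusted p = 0.000949).

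Fasn and Acly, the enzymes on either side of Acaca, were less certain. Fasn, the fatty acid synthase, was at 9.66, 9.58, 8.49 and 8.69 in KO_CD3CD28, against 8.85, 8.58, 8.19 and 7.76 in KO_CD3. It was at 9.77, 9.66, 9.52 and 8.57 in WT_CD3CD28, against 9.19, 8.95, 9.01 and 8.77 in WT_CD3. The groups overlapped in both genotypes, with costimulated replicates 1 and 2 the highest. The KO difference of 0.76 (adjusted p = 0.0493) was called and the WT difference of 0.40 was not. The Fasn call was lost without any of 12 of the 16 arrays (adjusted p-values up to 0.166, differences down to 0.56 without KO_CD3 replicate 4). Acly, which supplies cytosolic acetyl-CoA, was at 10.11, 10.00, 9.37 and 9.46 in KO_CD3CD28, against 9.45, 9.30, 9.43 and 8.69 in KO_CD3. In wild-type cells Acly was at 10.10, 10.19, 9.90 and 9.42 in WT_CD3CD28, against 9.73, 9.64, 9.80 and 9.65 in WT_CD3. Here too the groups overlapped, with a called KO difference of 0.52 (adjusted p = 0.046) and a WT difference of 0.20 that was not called. The Acly call was lost without any of 10 arrays, with a lowest difference of 0.34 without KO_CD3 replicate 4 (adjusted p = 0.162).

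**Figure D3:**
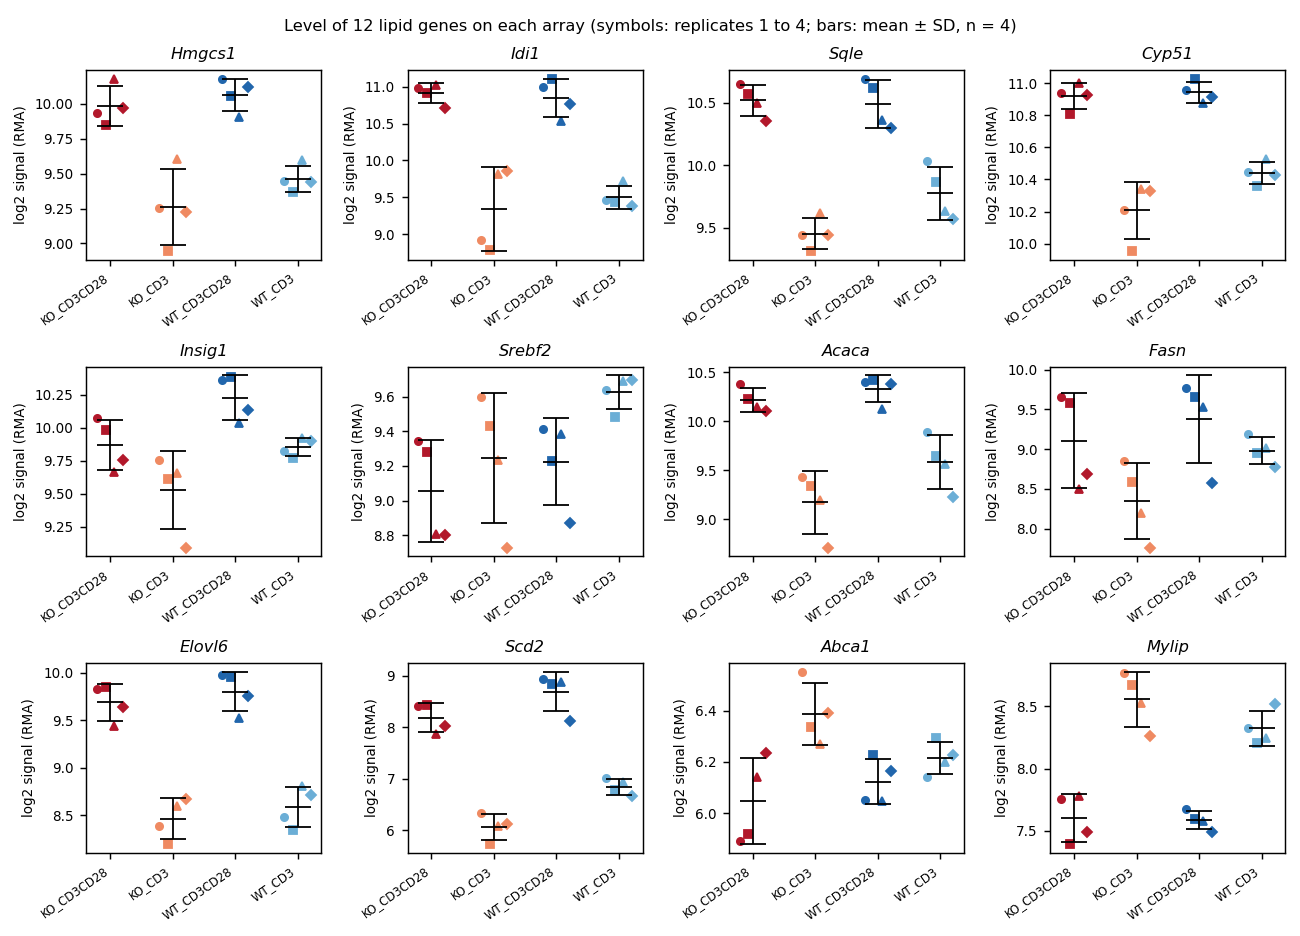
Log2 signal of 12 genes on each array, by group, with the group mean and SD. Scd2 in KO_CD3CD28 lies between 7.88 and 8.44 and in KO_CD3 between 5.73 and 6.34; Mylip runs the other way, with every costimulated array below every anti-CD3 array.

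The genes that control the pathway moved little. Among the 5 regulators and Stard4, 1 was higher and 1 lower in KO cells, and 2 were higher in WT cells. Such small counts are a description, beside 20.4% of all genes higher and 17.6% lower in KO cells and 16% higher in WT cells. Stard4, the sterol carrier, was at 9.50, 9.53, 9.68 and 9.69 in KO_CD3CD28, against 8.43, 8.66, 8.94 and 9.00 in KO_CD3. For WT cells, Stard4 was at 9.62, 9.67, 9.69 and 9.65 in WT_CD3CD28, against 8.87, 8.72, 9.13 and 8.86 in WT_CD3. It rose without overlap by 0.84 in KO cells and 0.76 in WT cells (adjusted p = 1.85e-05 and 7.84e-05). Insig1, which retains SCAP and is itself an SREBP target, was at 10.07, 9.98, 9.66 and 9.76 in KO_CD3CD28, against 9.75, 9.61, 9.66 and 9.09 in KO_CD3. It was at 10.36, 10.38, 10.04 and 10.13 in WT_CD3CD28, against 9.82, 9.77, 9.92 and 9.90 in WT_CD3. The differences were near the threshold on both sides, at 0.34 in KO cells (adjusted p = 0.0515; the replicate block gave 0.0251) and 0.37 in WT cells (adjusted p = 0.0421). The WT call of Insig1 was lost without any of 6 WT arrays (adjusted p-values up to 0.125), and a KO call appeared without KO_CD3CD28 replicate 3, KO_CD3 replicate 1 or KO_CD3 replicate 3 (adjusted p-values down to 0.0281). Without KO_CD3 replicate 4 the KO difference of Insig1 was 0.19 (adjusted p = 0.183). Insig2, the second retention protein, was lower by 0.36 in KO cells (-0.36, adjusted p = 0.0226), with -0.17 in WT cells. This Insig2 call was lost under median centring (-0.22) and without KO_CD3CD28 replicate 2 (-0.24), KO_CD3 replicate 3 (-0.32) or KO_CD3 replicate 4 (-0.30).

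The transcripts of the SREBP factors themselves gave no called difference. Srebf2, the factor for sterol genes, was at 9.34, 9.28, 8.81 and 8.80 in KO_CD3CD28, against 9.60, 9.43, 9.23 and 8.73 in KO_CD3. Its values in WT_CD3CD28 were 9.42, 9.23, 9.38 and 8.87, against 9.64, 9.48, 9.69 and 9.70 in WT_CD3. The WT groups did not overlap and the KO groups did, with differences of -0.19 in KO cells (adjusted p = 0.407) and -0.40 in WT cells (adjusted p = 0.096). The replicate block brought the WT value of Srebf2 to an adjusted p of 0.0282, and leaving out KO_CD3 replicate 4 to 0.0422. Srebf1, the factor linked to fatty acid genes, was at 8.25, 8.04, 7.84 and 7.93 in KO_CD3CD28, against 8.16, 8.12, 8.03 and 7.75 in KO_CD3. It was at 8.17, 8.04, 8.19 and 7.82 in WT_CD3CD28, against 8.10, 8.06, 8.34 and 8.38 in WT_CD3. The groups overlapped throughout, and the 95% interval of the difference was -0.25 to 0.25 in KO cells and -0.41 to 0.09 in WT cells. Scap, the escort protein, differed by 0.19 in KO cells and -0.02 in WT cells, neither called.

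In the LXR and efflux arm no gene was higher under anti-CD28. Of 4 genes, 2 were lower in KO cells and 1 in WT cells, against 17.6% and 13% of all genes. The median differences were -0.31 in KO cells and -0.25 in WT cells. Mylip, which marks lipoprotein receptors for breakdown, was at 7.76, 7.39, 7.78 and 7.49 in KO_CD3CD28, against 8.76, 8.67, 8.53 and 8.26 in KO_CD3. It was at 7.68, 7.60, 7.58 and 7.49 in WT_CD3CD28, against 8.33, 8.20, 8.24 and 8.52 in WT_CD3. It fell in both genotypes with no overlap, with log2 differences of -0.95 in KO cells (SE 0.115, adjusted p = 5e-06) and -0.74 in WT cells (adjusted p = 0.000108). Abca1, a cholesterol exporter, was dim, at 5.89, 5.92, 6.14 and 6.24 in KO_CD3CD28, against 6.55, 6.34, 6.27 and 6.39 in KO_CD3. In WT cells Abca1 was at 6.05, 6.23, 6.05 and 6.16 in WT_CD3CD28, against 6.14, 6.29, 6.20 and 6.23 in WT_CD3. The KO groups stood just apart, and the difference of -0.34 was called (adjusted p = 0.00655), although under median centring it was -0.21 (adjusted p = 0.0679). The WT difference of Abca1 was -0.09.

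Abcg1, the second exporter, was at 8.25, 8.01, 8.00 and 8.14 in KO_CD3CD28, against 8.64, 8.58, 8.26 and 8.04 in KO_CD3. It was at 8.19, 8.14, 8.40 and 8.04 in WT_CD3CD28, against 8.94, 8.53, 8.33 and 8.38 in WT_CD3. Both pairs overlapped, and the differences of -0.28 in KO cells (adjusted p = 0.132) and -0.35 in WT cells (adjusted p = 0.0745) were not called, while the replicate block gave 0.0286 in WT cells. Leaving out KO_CD3 replicate 4 gave a call for Abcg1 in both genotypes (adjusted p = 0.0353 in KO cells and 0.0468 in WT cells), and leaving out replicate 3 of WT_CD3CD28 or of WT_CD3 gave one in WT cells. Nr1h3, the LXR receptor with a usable probe, was dim on all arrays and differed by -0.27 in KO cells (adjusted p = 0.0677) and -0.15 in WT cells. Nr1h3 was called in KO cells without KO_CD3CD28 replicate 3 (-0.33, adjusted p = 0.0325) or WT_CD3CD28 replicate 1 (adjusted p = 0.0463). Macrophages also express these genes. Of 14 myeloid and dendritic cell markers 12 were tested, and their mean level was 6.02 to 6.14 in KO_CD3CD28, 6.29 to 6.62 in KO_CD3, 6.00 to 6.10 in WT_CD3CD28 and 6.26 to 6.42 in WT_CD3. Of these 12, 4 were lower under anti-CD28 in KO cells and 2 in WT cells, against 17.6% and 13% of all genes. The defining macrophage marker Adgre1 was not among the genes tested. The part of such cells in the lower values of Mylip, and of Abca1 in KO cells, was not tested.

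Neighbouring steps came from lists that share no gene with this set and were chosen with earlier results of these data known. Their counts stand beside 20.4% of all genes higher and 17.6% lower in KO cells, and 16% and 13% in WT cells. Counts near those shares say nothing particular about a list. Of 9 measured genes of the isoprenoid branch, which uses farnesyl pyrophosphate for quinones, dolichol and protein prenylation, 5 were higher in KO cells and 4 in WT cells, and none lower. Among them Coq2, of coenzyme Q synthesis, was higher by 0.66 in KO cells and 0.47 in WT cells. Of 16 genes of fatty acid supply, elongation and activation, 9 were higher and 2 lower in KO cells, and 5 higher and 2 lower in WT cells. Acsl4, which activates long fatty acids, was higher by 0.71 in KO cells and 0.57 in WT cells, while Acss2, which makes acetyl-CoA from acetate, was lower (-0.91 in KO cells and -0.89 in WT cells). In SREBP processing and sterol sensing, 2 of 7 genes were higher and 1 lower in each genotype. Tmem97, a sterol-responsive membrane protein, differed by 1.70 in KO cells and 1.31 in WT cells, and Gramd1a, a sterol transfer protein, by -1.09 in KO cells and -1.06 in WT cells. Of 7 genes of fatty acid oxidation, 3 were higher and 1 lower in KO cells, and 1 was lower in WT cells. The one lower in both was Cpt1a, which admits fatty acids to mitochondria (-0.82 in KO cells and -0.96 in WT cells). Of 5 other LXR targets, 2 were lower in each genotype, Abca7 (-0.80 in KO cells and -1.06 in WT cells) and Smpdl3a (-1.67 in KO cells and -1.40 in WT cells). Of 4 genes of sterol esters and oxysterols none was called in KO cells and 2 were lower in WT cells, Sult2b1 (-0.49) and Hsd3b7 (-0.25). All 7 measured genes of cell division were higher in each genotype, with median differences of 3.41 in KO cells and 2.68 in WT cells, and their part in the rise of the synthesis genes was not tested.

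The next comparison asked whether the CD28 difference itself depended on Dec1. With limma's interaction term, none of the 34 genes and 0% of all 16427 genes were called. At an unadjusted p under 0.05 there were 867 of all genes and 1 of these 34, Sqle, whose difference was larger in KO cells by 0.35 (SE 0.164, unadjusted p = 0.0474, adjusted p = 0.905). The CD28 difference was the larger in KO cells, as a signed value, for 27 of the 34 genes (79.4%), against 50.3% of all genes, and for 17 of the 18 sterol synthesis enzymes. The median of the interaction was 0.14 over the 34 genes and 0.00 over all genes. The CD28 differences in KO and WT cells, which share no arrays, had a Pearson correlation of 0.975 and a Spearman correlation of 0.948 across the 34 genes, with the same sign in 33. Genes are not independent replicates, and neither the correlations nor the sign count were taken over all genes. These values are therefore a description and say nothing particular about this set. Among the single genes the 95% interval of the interaction was 0.00 to 0.70 for Sqle, -0.05 to 0.47 for Cyp51 and -0.52 to 0.02 for Abca1, the 3 genes with the smallest p.

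The genotypes were then compared under anti-CD3 alone. In limma 1 of the 34 genes, Scd2, was lower in KO cells and none was higher, where 0.749% of all genes were called lower and 0.28% higher. Scd2, with the KO_CD3 and WT_CD3 values given above, averaged 6.07 ± 0.25 in KO_CD3 against 6.84 ± 0.16 in WT_CD3 (SD, n = 4), and the groups did not overlap. The difference was -0.78 (SE 0.177, adjusted p = 0.0473), lower in 4 of 4 pairs of like-numbered replicates, which were not all matched in Xist. This call was close to the threshold: it was lost without any of 13 of the 16 arrays, with values of -0.67 to -0.87 and adjusted p-values up to 0.171, and with the Xist level as a covariate (adjusted p = 0.0734).

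Short of that threshold, the difference between KO_CD3 and WT_CD3 was negative for 29 of the 34 genes, while it was positive for 55.4% of all genes. The larger CD28 difference in KO cells described above draws on these same arrays and is not independent of this count. The median difference between KO_CD3 and WT_CD3 was -0.20 over the 34 genes and 0.03 over all genes. Unadjusted p-values were under 0.05 for 13 of the 34 genes and for 3987 of all genes. The largest differences after Scd2 were those of Fasn (-0.63), Acly (-0.49), Idi2 (-0.49) and Acaca (-0.41), none called. Acly stood apart between the groups (9.45, 9.30, 9.43 and 8.69 in KO_CD3, against 9.73, 9.64, 9.80 and 9.65 in WT_CD3). Cyp51, Insig1, Lss and Nr1h3 also had no overlap, with differences of -0.23, -0.33, -0.35 and 0.23, none called. How many of all genes had no overlap in this comparison was not counted, so these separations are a description. Fdft1 differed by -0.34 (adjusted p = 0.0994), and by -0.44 without KO_CD3 replicate 3 (adjusted p = 0.0374), where Nsdhl was also called (-0.50, adjusted p = 0.0328). A second Fdft1 probe differed by -0.55 (adjusted p = 0.0498 with every probe tested on its own). With the replicate number as a block 8 genes were called lower in KO_CD3: Scd2, Acaca, Acly, Fasn, Fdft1, Mvd, Scap and Sqle. The block also raised the calls over all genes in this comparison, to 1954 (11.9%) against 169 without it, so the larger count is not particular to these genes. For the CD28 difference the block gave 24 calls among the 34 genes in KO cells, against 45.3% of all genes, and 20 in WT cells, against 35.3%. With replicates 1 and 2 alone, 7 of the 34 genes differed between KO_CD3 and WT_CD3, against 8.45% of all genes. The 7 genes of cell division had a median difference of -0.88 between KO_CD3 and WT_CD3, none called, and their part in the lower values was not tested.

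**Figure D4:**
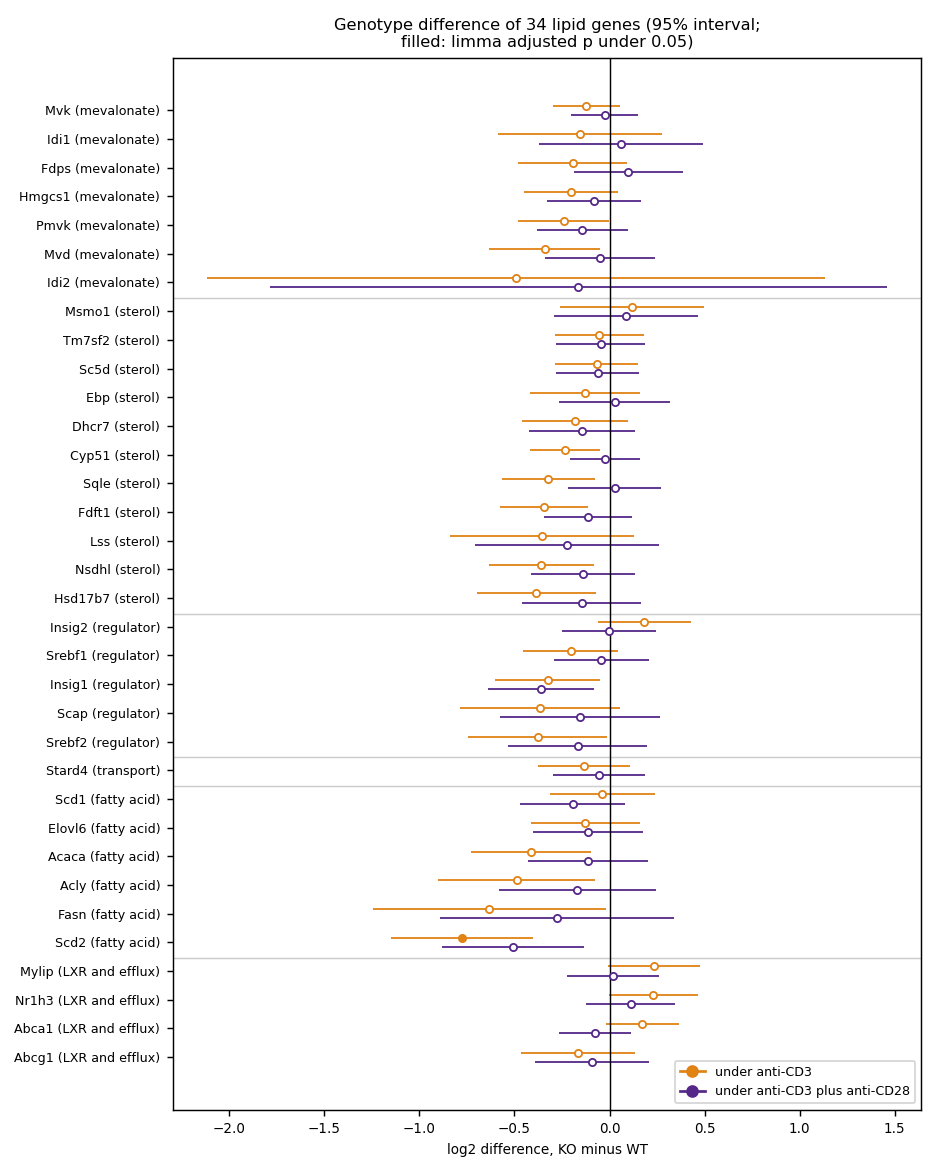
Log2 difference of each gene between KO and WT cells, under anti-CD3 and under anti-CD3 plus anti-CD28, with its 95% interval; the filled point has a limma adjusted p under 0.05. Under anti-CD3 29 of 34 points lie left of 0, and Scd2 at -0.78 is the filled one. Over all genes tested, 55.4% of the differences under anti-CD3 are above 0.

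Under anti-CD3 plus anti-CD28, none of the 34 genes was called between the genotypes, where limma called 0.00609% of all genes, which is Bhlhe40 alone. At an unadjusted p under 0.05 there were 545 of all genes and 2 of these, Scd2 and Insig1. The difference between KO_CD3CD28 and WT_CD3CD28 was -0.51 for Scd2 (unadjusted p = 0.0108) and -0.36 for Insig1 (unadjusted p = 0.0143), each with an adjusted p of 0.999 and each lower in 4 of 4 pairs of like-numbered replicates. Their groups overlapped, since WT_CD3CD28 replicate 4 of Scd2 and WT_CD3CD28 replicate 3 of Insig1 fell into the KO range. The median difference over the 34 genes was -0.09 and over all genes 0.02. For Hmgcs1 the 95% interval of the difference was -0.33 to 0.17, for Sqle -0.22 to 0.27 and for Mylip -0.22 to 0.26.

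The split of the replicates seen for Idi2 was looked for in the other genes. In KO_CD3CD28, 6 of the 34 genes (17.6%) were higher by more than 0.5 in replicates 1 and 2 than in replicates 3 and 4, against 5.48% of all genes. Besides Idi2 these were Fasn (1.02), Lss (0.78), Scap (0.76), Acly (0.64) and Srebf2 (0.51). In KO_CD3, Fasn (0.74) and Srebf2 (0.53) were also higher in replicates 1 and 2 by more than 0.5, while Idi1 (-0.98) and Msmo1 (-0.83) were lower there by more than 0.5. In WT_CD3 Idi2 alone passed that size (0.52). In WT_CD3CD28 there were 3 such genes (8.82%), against 3.45% of all genes. The CD28 calls among the 34 genes numbered 31 in KO cells and 24 in WT cells with replicates 1 and 2 alone, and 14 in KO cells and 9 in WT cells with replicates 3 and 4 alone. Over all genes the called share was 46.8% in KO cells and 36.1% in WT cells with replicates 1 and 2, and 17.6% in KO cells and 16.1% in WT cells with replicates 3 and 4, so the fall was seen across the series. The labels name no batch for these numbers.

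Across all processing alternatives, 13 genes kept their CD28 call in KO cells and 9 in WT cells. The 9 were called in both genotypes throughout: Idi1, Sqle, Cyp51, Hsd17b7, Stard4, Acaca, Elovl6, Scd2 and Mylip. In KO cells Hmgcs1, Fdft1, Lss and Nsdhl also kept theirs. It was not counted how many of all genes kept their call throughout, so these numbers are a description.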

How the data were processed

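Total RNA of 16 samples was measured on Affymetrix mouse arrays. The deposited unit is a log2 signal from RMA (background correction, quantile normalization, probe summary), per the submitters' processing notes, and RNA was extracted with Trizol, per the labels' protocols. No genome build of the arrays is named in the labels. Of 35556 probes, 21789 had a single gene symbol in the platform annotation. Probes above the 25th percentile of an array on 4 or more arrays were retained (17930), and each of 16427 genes was read from its probe of highest mean.

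The tool was limma 3.58.1 (R 4.3.3). It fitted 4 group means to all 16 arrays (12 residual degrees of freedom, 4.92 prior), and differences were called at a Benjamini-Hochberg adjusted p under 0.05 over all genes. The 5 comparisons were the CD28 difference in KO and in WT cells, KO against WT cells for either stimulus, and the interaction. Tests were two-sided. The fit was tested on simulated data with known changes.

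Like-numbered replicates deviated together from their group means, with correlations of 0.22 to 0.51 in KO cells, 0.16 to 0.37 in WT cells, 0.18 to 0.45 between the anti-CD3 groups and 0.20 to 0.59 between the costimulated groups. All are above 0.1, so the numbers were taken to pair the samples and the block was run as an alternative to the main fit, which has no block. Between KO and WT cells, samples numbered 1, 2 and 4 differed in Xist under both stimuli. Like-numbered pairs across the genotypes were therefore not matched for this RNA of female cells. Further alternatives changed the scaling, filter, probe choice, variance model and array weights, or left out each array in turn, kept replicates 1 and 2 or 3 and 4 alone, added the Xist level as a covariate, or fitted only the groups compared.

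The members and the gene lists (SREBP processing, isoprenoid branch, sterol esters, fatty acid supply, fatty acid oxidation, other LXR targets, cell division, and markers of T, B, myeloid, and CD8 and NK cells) were chosen with earlier results of these data known. All members are named. Per-array values are given for a fixed set of genes by role and for the 3 of smallest p in any comparison. Promoters came from RefSeq (GRCm38.p6). Figures and summaries used matplotlib 3.10.9, pandas 2.3.3 and numpy 2.4.6 under Python 3.11.15.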

Additional observations from a re-analysis of the deposited data

Results flagged for a closer look

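In 6 of the 136 combinations of gene and group, 1 array stood far from the other 3, by Dixon's test at the 95% level. Chance flags about 1 in 20 groups. Lss in KO_CD3 was at 6.92 in replicate 4, against 7.63 to 7.67 on the others. Hsd17b7 in WT_CD3 was at 8.06 in replicate 4, against 8.28 to 8.30. Nr1h3 in WT_CD3 was at 6.14 in replicate 1, against 6.39 to 6.41. In WT_CD3CD28, Scd2 was at 8.12 in replicate 4, against 8.85 to 8.93, Acaca at 10.12 in replicate 3, against 10.38 to 10.42, and Tm7sf2 at 6.78 in replicate 3, against 6.51 to 6.52.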

How the results depend on the processing

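Over 29 alternatives and 170 differences (34 genes in 5 comparisons), 117 values lost a call, 80 gained one, and no called difference changed sign, while 157 uncalled values did. The 23 CD28 calls in KO cells became 15 to 24 when 1 array was left out (lowest without KO_CD3CD28 replicate 2), and 14 with replicates 3 and 4 alone. The 16 calls in WT cells became 12 to 19 with 1 array left out, and 9 with replicates 3 and 4 alone. The single genotype call under anti-CD3 became 0 to 3 with 1 array left out, 0 with no filter, with the Xist covariate, with only the 2 groups fitted and with replicates 3 and 4 alone, and 7 (1 higher, 6 lower) with replicates 1 and 2 alone. With the replicate block it became 8, and the CD28 calls 24 in KO cells and 20 in WT cells, while the calls over all genes became 1954 (169 without the block), 7441 (6245 without) and 5800 (4770 without) in the same order. The block added Insig1 in KO cells and Fdps, Idi2, Abcg1 and Srebf2 in WT cells, and changed no other CD28 call. The genotype under anti-CD3 plus anti-CD28 and the interaction gave 0 calls among these genes under every alternative run. The cause of these changes was not tested. Signal over background limits Idi2 under anti-CD3, Scd2 in KO_CD3, Tm7sf2 in KO_CD3CD28, and Scd1, Nr1h3 and Abca1 on all arrays, all below the array median there.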

Other observations

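The cytokine gene Il3, which is no lipid gene and was chosen after its values were seen, parted the costimulated replicates by number as Idi2 did. It was at 8.36, 8.81, 4.99 and 5.80 in KO_CD3CD28, against 4.69, 4.44, 4.42 and 4.20 in KO_CD3. In WT cells Il3 was at 9.89, 10.03, 6.80 and 6.36 in WT_CD3CD28, against 4.13, 4.46, 5.16 and 4.47 in WT_CD3. Replicates 1 and 2 of both costimulated groups were the highest. The labels do not say what the replicate numbers stand for.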
